A study of Mus musculus with 24 samples.

Results

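The collagen chains are the genes whose symbol has the form Col, a type number, the letter a and a chain number, and 44 of the 49315 genes in the count table had such a symbol. They were measured by RNA sequencing in MS03 cells, a murine Schwann cell (SC) line with the genotype Nf2-/-, which was made by infecting an immortalized line from an Nf2 flox/flox mouse with Cre, so that all 8 groups, the controls included, lack *Nf2* and come from 1 line. Cells received dimethyl sulfoxide (DMSO) or a compound directed at focal adhesion kinase (FAK, the product of *Ptk2*) for 24 hours, with 3 libraries per group, called biological replicates of the line, and 24 libraries in all, so that p-values measure the spread between cultures of 1 line. The 1 μM groups received a kinase inhibitor (defactinib, VS-4718, IN10018, also called ifebemtinib, or GSK2256098) or PROTAC FAK degrader 1 (PROTAC-3). The PROTACs GSK215 and BSJ-04-0146 were given at 0.1 μM, so compound and dose cannot be told apart between these 2 and the 5 compounds at 1 μM. PROTACs join a ligand of a protein to a ligand of a ubiquitin ligase, so that the protein is marked for degradation by the proteasome.

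Collagens are built from chains that wind around one another in the endoplasmic reticulum, are exported and then assemble in the matrix. Fibrillar chains form the banded fibers of connective tissue, type IV chains form the sheet of the basement membrane that every SC lays down around itself, and type VI chains form beaded filaments between the cell surface and the fibers. FAK acts at the adhesions where integrins hold on to this matrix.

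Total counts were 14472462 to 27449516 per library, with a median of 22606532.5. The 9 PROTAC libraries held 14472462 to 21588406 counts and each of the other 15 at least 21654444. *Nf2* had 2360 to 5066 counts per library, which does not show whether exons are missing. Of 8 SC markers 7 passed the filter on low counts, led by *Sox10* and *Ngfr*, and their summed level was 38.2 to 40.1 CPM (counts relative to the library size after TMM scaling) in DMSO libraries. Of 6 fibroblast markers 3 passed, *Pdgfrb*, *Pdgfra* and *Pi16*, whereas *Lum* had no count in any library and *Thy1* and *Dpt* at most 2 and 3. None of 4 endothelial markers passed. Of 4 macrophage markers *Csf1r* and *Cd68* passed, whereas *Ptprc* and *Adgre1* had at most 1 count in any library, and of 3 perineurial markers all passed, with *Slc2a1* making up nearly all of their sum.

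Of the 44 chains 25 passed the filter and were tested, 9 of 11 fibrillar, 4 of 6 basement membrane and 3 of 6 beaded-filament chains. The others were 6 of 9 fibril-associated chains with interrupted helices (FACIT), 1 of 2 multiplexins, 1 of 3 chains of hexagonal networks and the 1 anchoring-fibril chain. The 19 chains that did not pass had at most 10 counts in any library. They were the fibrillar *Col2a1* and *Col24a1*, the basement membrane chains *Col4a3* and *Col4a6*, the type VI chains *Col6a3*, *Col6a5* and *Col6a6*, the FACIT chains *Col9a1*, *Col19a1* and *Col22a1*, the multiplexin *Col15a1*, the network chains *Col8a2* and *Col10a1*, all 4 transmembrane chains (*Col13a1*, *Col17a1*, *Col23a1* and *Col25a1*) and *Col26a1* and *Col28a1*. *Col6a3*, the largest strand of the usual type VI molecule, had 0 to 2 counts per library, whereas *Col6a1* had 180 to 749. *Col4a6*, which pairs with *Col4a5*, had 0 to 6.

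Levels per length, as reads per kilobase of the longest protein-coding transcript, scaled to CPM (RPKM), covered more than 3 orders of magnitude among the tested chains in DMSO. *Col1a2*, a chain of type I collagen, was highest at 252.5 ± 2.34 (SD, n = 3) RPKM. *Col18a1*, the multiplexin whose C-terminal fragment is endostatin, followed at 100.4 ± 1.76. *Col1a1*, the more numerous strand of the usual type I molecule, stood at 66.1 ± 1.48, and *Col3a1*, the only chain of type III collagen, at 61.8 ± 1.68. The type V chains *Col5a1* and *Col5a2*, which start fibrils, were at 53.6 ± 0.854 and 47.9 ± 0.860. *Col8a1*, a chain of short networks under endothelia, was at 43.5 ± 0.362, and the partners *Col4a1* and *Col4a2*, of the ubiquitous basement membrane, were at 35.0 ± 0.647 and 23.7 ± 0.623. Below them came *Col16a1* at 8.75 ± 0.366, *Col7a1*, the chain of anchoring fibrils, at 4.75 ± 0.279, and *Col6a1* at 3.05 ± 0.203 RPKM. Between neighbours among these 12 chains the DMSO libraries did not overlap. The remaining 13 chains were below 1.7 RPKM, and DMSO libraries overlapped at 9 of the 24 steps of the whole order, all among these 13. With the union of all annotated exons as length, *Col1a2* fell to 108.7 RPKM and remained first, and among the 12 highest chains only the neighbours *Col3a1* and *Col5a1*, and *Col8a1* and *Col4a1*, changed places.

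**Figure D1:**
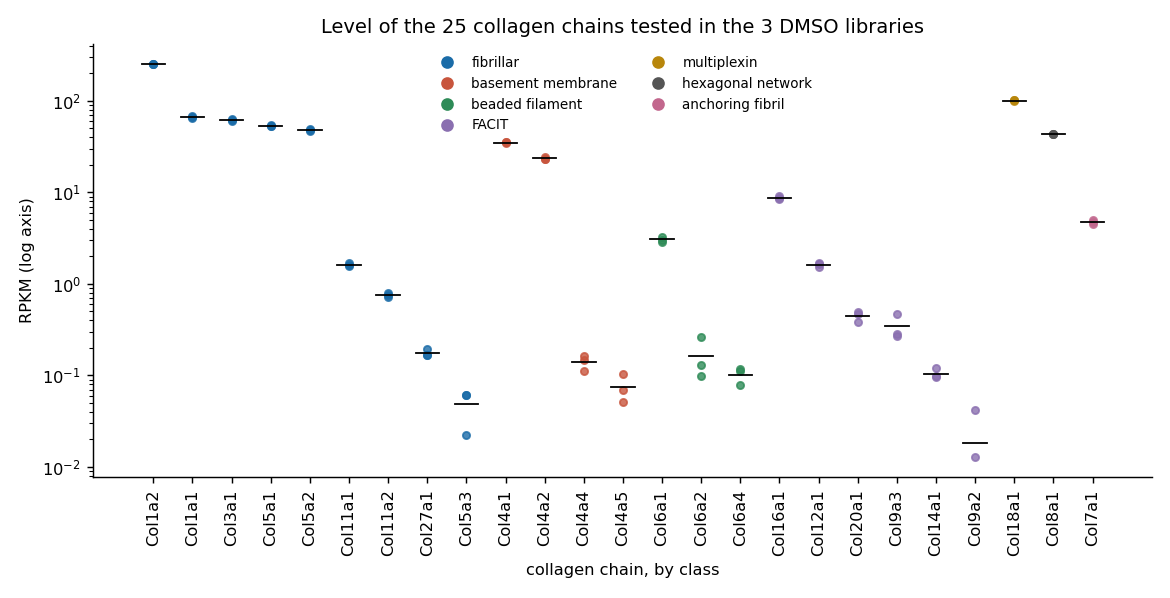
Level of each of the 25 tested collagen chains in the 3 DMSO libraries, in RPKM on a log axis, with chains ordered by class; points are libraries, black lines are means, and a library at 0 is not drawn. *Col1a2* stood highest at a mean of 252.5 RPKM, and the beaded-filament chains stood between 0.102 and 3.05.

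In coordinates of GRCm38 (GENCODE M21), the fibrillar genes named with values below were *Col1a1* (chr11:94936224-94953042, plus strand), *Col1a2* (chr6:4504814-4541544, plus), *Col3a1* (chr1:45311538-45349706, plus), *Col5a1* (chr2:27886425-28039514, plus) and *Col27a1* (chr4:63214004-63334991, plus). *Col4a1* (chr8:11198423-11312826, minus) and *Col4a2* (chr8:11312805-11449287, plus) stand head to head. *Col6a1* (chr10:76708792-76726168, minus) and *Col6a2* (chr10:76595762-76623630, minus) are neighbours on 1 chromosome, on which *Col18a1* (chr10:77052178-77166548, minus) also lies. *Col8a1* is at chr16:57624258-57754737 on the minus strand and *Col7a1* at chr9:108953586-108984875 on the plus strand. Exon bases shared with other genes made up at most 3.39% of a tested chain except for *Col9a3* (6.07%), and as the strand setting of the counting was not given, reads in such bases cannot be assigned with certainty.

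Promoter windows, the 250 bases before a RefSeq transcription start on GRCm38.p6, were found for 20 of the 25 tested chains. Shown are the windows, none of which held an annotated exon, of 2 fibrillar chains that were higher with GSK215 and BSJ-04-0146 and of 2 chains that were lower with PROTAC FAK degrader 1. Capitals mark the CCAAT box (CCAAT or its reverse complement ATTGG), the GC box (GGGCGG or CCGCCC) and the TATA box (TATAA or TTATA), searched on both strands with overlaps allowed. These motifs occur in 33.8%, 32.7% and 22.8% of all 32851 windows, and in 10, 15 and 2 of the 20 collagen genes. *Col3a1* (chr1:45311288-45311537, plus) held 2 TATA matches, which are the strands of 1 palindrome, and no GC box. *Col11a1* (chr3:114030290-114030539, plus) and *Col7a1* (chr9:108953336-108953585, plus) each held 1 CCAAT box with 2 and 1 GC boxes, and *Col8a1* (chr16:57754738-57754987, minus) held 4 GC boxes.
Col3a1: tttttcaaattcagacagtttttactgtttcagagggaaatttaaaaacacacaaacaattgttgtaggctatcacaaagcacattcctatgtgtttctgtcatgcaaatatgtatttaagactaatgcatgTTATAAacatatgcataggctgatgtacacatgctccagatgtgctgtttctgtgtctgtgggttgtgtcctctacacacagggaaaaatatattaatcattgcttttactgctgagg
Col11a1: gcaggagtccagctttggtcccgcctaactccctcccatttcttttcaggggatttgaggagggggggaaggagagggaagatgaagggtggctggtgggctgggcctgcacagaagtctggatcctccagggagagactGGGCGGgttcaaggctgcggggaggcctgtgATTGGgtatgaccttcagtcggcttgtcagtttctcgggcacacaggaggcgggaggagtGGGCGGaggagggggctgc
Col8a1: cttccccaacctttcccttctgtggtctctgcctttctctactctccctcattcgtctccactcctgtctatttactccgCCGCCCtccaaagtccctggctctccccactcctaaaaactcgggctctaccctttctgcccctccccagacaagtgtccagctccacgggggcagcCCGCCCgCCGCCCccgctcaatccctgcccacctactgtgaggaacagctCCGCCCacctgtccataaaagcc
Col7a1: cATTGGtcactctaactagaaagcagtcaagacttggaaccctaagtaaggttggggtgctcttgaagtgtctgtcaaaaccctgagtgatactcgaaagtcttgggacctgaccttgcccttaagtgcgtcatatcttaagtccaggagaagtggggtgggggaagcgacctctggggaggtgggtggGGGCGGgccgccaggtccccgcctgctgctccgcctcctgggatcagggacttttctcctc

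The annotated first exons of *Col4a1* and *Col4a2* overlap on opposite strands by 22 bases (chr8:11312805-11312826, given on the plus strand), so these partners share transcribed sequence at their starts. Their promoter windows as defined above do not overlap, and all 250 bases of each lie in annotated exons. The GC box in the overlap is in capitals.
Col4a1 and Col4a2 overlap: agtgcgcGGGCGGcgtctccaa

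Summed over all 44 chains, collagen transcripts made up 4170 ± 51.5 (SD, n = 3) CPM in DMSO, or 0.403% of all counts. The sum was 2980 ± 28.5 with PROTAC FAK degrader 1 and 3973 ± 79.5 with IN10018, both lower than in DMSO in every library. The other compounds were higher in every library, at 4725 ± 84.6 with defactinib, 4723 ± 85.1 with VS-4718, 4671 ± 73.6 with GSK2256098, 5418 ± 69.0 with GSK215 and 4617 ± 131 with BSJ-04-0146. Collagen as a transcript class therefore spanned 2980 CPM with PROTAC FAK degrader 1 to 5418 CPM with GSK215.

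Each compound was set against DMSO in 1 quasi-likelihood model of edgeR, with Benjamini-Hochberg adjusted p over the 16070 genes tested and a threshold of 0.05. The 7 comparisons share the 3 DMSO libraries, so their values are given side by side and were not correlated with each other. With defactinib 13 of 25 chains rose and none fell, where 22.4% of all genes passed the test (11.4% rose and 11.0% fell). With VS-4718 12 chains rose and 2 fell, where 39.2% of all genes passed (20.4% rose and 18.9% fell). With GSK2256098 8 rose and none fell, where 12.5% of all genes passed (6.36% rose and 6.09% fell). IN10018 gave no higher and 3 lower chains, where 13.3% of all genes passed (6.44% rose and 6.85% fell). PROTAC FAK degrader 1 gave 3 higher and 16 lower chains, where 66.8% of all genes passed (34.1% rose and 32.7% fell). With GSK215 17 chains rose and 3 fell, where 54.7% of all genes passed (27.4% rose and 27.2% fell). With BSJ-04-0146 14 rose and 6 fell, where 54.6% of all genes passed (27.7% rose and 26.9% fell). Scaling by library totals alone left 14 higher and 3 lower chains with BSJ-04-0146, and it moved the share of higher genes among all genes called from 50.7% to 67.0% with BSJ-04-0146, from 50.2% to 68.3% with GSK215 and from 51.9% to 62.6% with VS-4718. The median log2 fold change of the 25 chains was 0.32 with defactinib, 0.27 with VS-4718, 0.20 with GSK2256098, -0.0091 with IN10018, -0.38 with PROTAC FAK degrader 1, 0.40 with GSK215 and 0.39 with BSJ-04-0146. Over all genes the median lay between -0.0044 and 0.0211 in these comparisons. In a bulk sample, fewer cells that express a gene and less RNA per cell cannot be told apart.

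**Figure D2:**
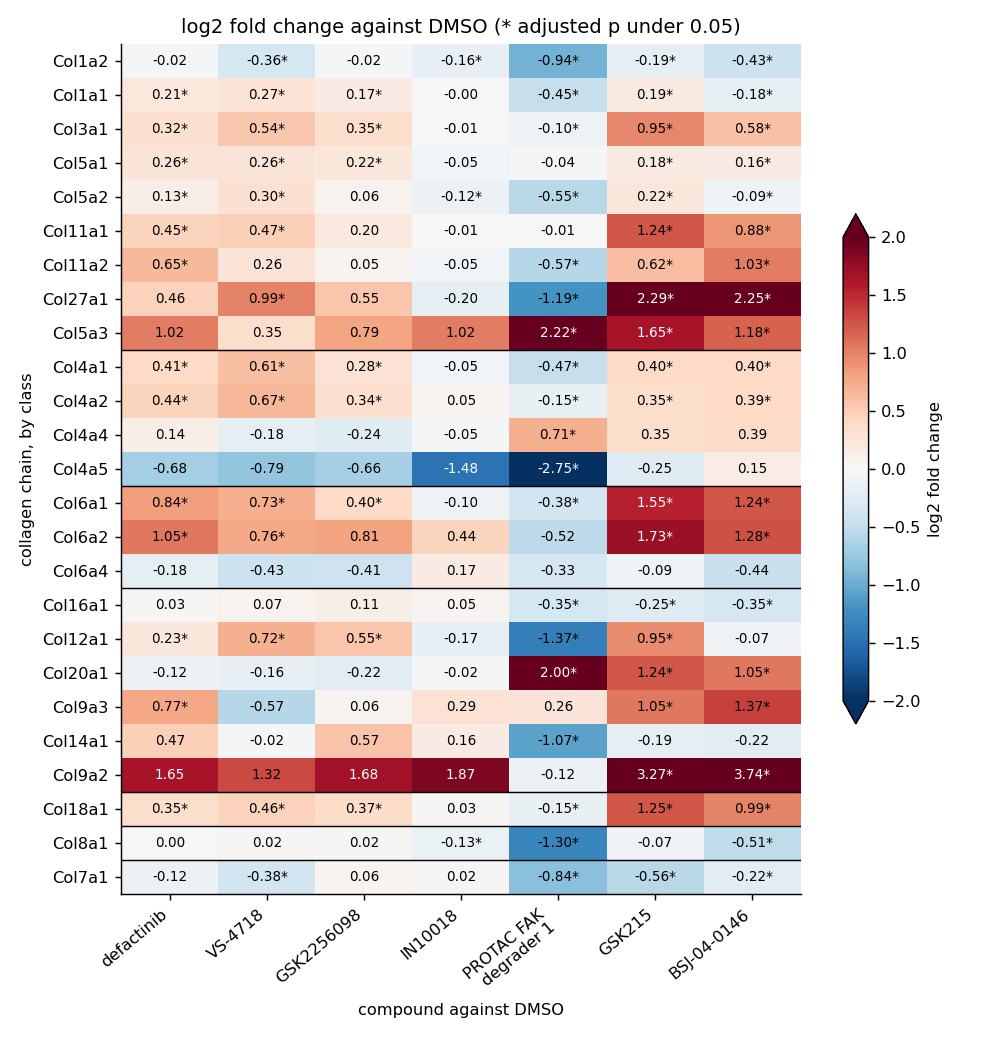
Log2 fold change against DMSO of the 25 tested collagen chains (rows, by class) with the 7 compounds (columns), from the edgeR fit; each cell holds its value, the color scale stops at -2 and 2, and an asterisk marks an adjusted p under 0.05. The column of PROTAC FAK degrader 1 holds 16 lower chains and that of GSK215 17 higher ones.

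The type I chains took opposite directions with VS-4718 and with GSK215. *Col1a2* stood at 1337, 1362 and 1352 in the DMSO libraries, 1330, 1351 and 1319 with defactinib, 1070, 1027 and 1069 with VS-4718, 1333, 1351 and 1320 with GSK2256098, 1202, 1198 and 1229 with IN10018, 711, 699 and 704 with PROTAC FAK degrader 1, 1160, 1179 and 1207 with GSK215 and 973, 1012 and 1017 with BSJ-04-0146, in CPM. All libraries with VS-4718, IN10018 and the 3 PROTACs lay below the DMSO libraries, whereas those with defactinib and GSK2256098 overlapped them. *Col1a2* fell with PROTAC FAK degrader 1, by 0.94 (SE 0.0282, adjusted p = 1.94e-27), with BSJ-04-0146, by 0.43 (SE 0.0280, adjusted p = 2.02e-16), and with VS-4718, by 0.36 (SE 0.0279, adjusted p = 2.21e-13) on the log2 scale. It also fell by 0.19 with GSK215 and by 0.16 with IN10018, and the log2 fold change was -0.018 with defactinib (95% interval -0.074 to 0.038) and -0.016 with GSK2256098 (-0.072 to 0.040). *Col1a1* stood at 383, 401 and 392 in the DMSO libraries, 423, 449 and 490.5 with defactinib, 502, 475 and 445 with VS-4718, 416, 449.8 and 459.7 with GSK2256098, 396, 370.2 and 407 with IN10018, 289, 288 and 282 with PROTAC FAK degrader 1, 447, 442 and 449 with GSK215 and 335, 338 and 365 with BSJ-04-0146, in CPM. Libraries with defactinib, VS-4718, GSK2256098 and GSK215 lay above all DMSO libraries, and those with PROTAC FAK degrader 1 and BSJ-04-0146 lay below. *Col1a1* rose by 0.27 (SE 0.0434, adjusted p = 2.25e-06) with VS-4718, by 0.21 with defactinib, 0.19 with GSK215 and 0.17 with GSK2256098, and fell by 0.45 (SE 0.0443, adjusted p = 9.26e-12) with PROTAC FAK degrader 1 and 0.18 with BSJ-04-0146. The loss with BSJ-04-0146 did not pass the test when libraries were scaled by totals alone (-0.07, adjusted p = 0.17), nor did the rise with GSK2256098 without DMSO replicate 1 (0.15, adjusted p = 0.0505) or without GSK2256098 replicate 3 (0.14, adjusted p = 0.0729).

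*Col3a1*, whose type III collagen runs with type I in the nerve, rose with 5 of the 7 compounds. *Col3a1* stood at 342, 354 and 335 in the DMSO libraries, 416, 429 and 444 with defactinib, 505, 481 and 516 with VS-4718, 428, 446 and 442 with GSK2256098, 347, 332 and 346 with IN10018, 320.3, 328 and 316 with PROTAC FAK degrader 1, 654, 667 and 676 with GSK215 and 508, 517 and 520.2 with BSJ-04-0146, in CPM. The GSK215 libraries were highest and the IN10018 libraries overlapped DMSO. Log2 fold changes were 0.95 (SE 0.0318, adjusted p = 1.8e-25) with GSK215, 0.58 (SE 0.0318, adjusted p = 1.05e-18) with BSJ-04-0146 and 0.54 (SE 0.0316, adjusted p = 4.18e-17) with VS-4718. Defactinib and GSK2256098 gave 0.32 and 0.35. With PROTAC FAK degrader 1 *Col3a1* passed as lower by a small amount, -0.096 (SE 0.0320, adjusted p = 0.00840), which was lost with library totals alone (-0.014, adjusted p = 0.724), without DMSO replicate 2 (-0.071, adjusted p = 0.0876) and without PROTAC FAK degrader 1 replicate 3 (-0.081, adjusted p = 0.0514).

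Of the type V chains, *Col5a1* rose slightly with 5 compounds. *Col5a1* stood at 448, 459 and 445 in the DMSO libraries, 527, 540.2 and 550.5 with defactinib, 552, 544 and 529 with VS-4718, 508, 536 and 536 with GSK2256098, 433, 429 and 445 with IN10018, 449, 429.6 and 434 with PROTAC FAK degrader 1, 495, 520.0 and 518 with GSK215 and 485, 496 and 528 with BSJ-04-0146, in CPM. With defactinib, VS-4718, GSK2256098, GSK215 and BSJ-04-0146 every library was above all DMSO libraries, by 0.26, 0.26, 0.22, 0.18 and 0.16 on the log2 scale, each past the test. Under PROTAC FAK degrader 1 the value was -0.043 (95% interval -0.11 to 0.023, adjusted p = 0.251). Its partner *Col5a2* averaged 317.5 CPM in DMSO and 217.0 with PROTAC FAK degrader 1, a fall by 0.55 (SE 0.0279, adjusted p = 4.07e-20), and rose by 0.30 with VS-4718, 0.22 with GSK215 and 0.13 with defactinib. With BSJ-04-0146 *Col5a2* was called lower by 0.088, and with library totals alone it was at 0.021 (adjusted p = 0.542). With IN10018 it fell by 0.12. *Col5a3*, a further type V chain found in few tissues, was scarce, with 3 to 10 counts per DMSO library, and it rose with PROTAC FAK degrader 1, where it had 26 to 32 counts (2.22, SE 0.36, adjusted p = 8.62e-07), with GSK215 (1.65, SE 0.39, adjusted p = 0.000348) and with BSJ-04-0146 (1.18, SE 0.41, adjusted p = 0.0140). Without IN10018 replicate 1 its value with IN10018 also passed (1.33, adjusted p = 0.0341). The rise with BSJ-04-0146 did not pass without DMSO replicate 1, BSJ-04-0146 replicate 2 or BSJ-04-0146 replicate 3 (0.87 to 1.09, adjusted p 0.0511 to 0.087).

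The minor fibrillar chains *Col11a1* and *Col11a2*, which set fibril width in cartilage, and *Col27a1* rose with both PROTACs given at 0.1 μM. *Col11a1* went from a mean of 12.4 CPM in DMSO to 29.2 with GSK215 (1.24, SE 0.0698, adjusted p = 3.48e-18) and 22.8 with BSJ-04-0146 (0.88, SE 0.0726, adjusted p = 2.11e-13). It also rose, by less, with VS-4718 (0.47, SE 0.0719, adjusted p = 1.09e-06) and defactinib (0.45, SE 0.0728, adjusted p = 1.43e-05). It was not separated from DMSO by PROTAC FAK degrader 1 (-0.0095, 95% interval -0.17 to 0.15). *Col11a2*, also higher with defactinib (0.65, SE 0.13, adjusted p = 0.000317), went from 4.57 CPM to 9.37 with BSJ-04-0146 (1.03, SE 0.13, adjusted p = 1.53e-08) and to 6.97 with GSK215 (0.62, SE 0.14, adjusted p = 0.000204), and fell to 3.09 with PROTAC FAK degrader 1 (-0.57, SE 0.16, adjusted p = 0.00170). *Col27a1* stood at 1.49, 1.28 and 1.28 in the DMSO libraries, 1.66, 2.09 and 1.81 with defactinib, 3.09, 2.31 and 2.58 with VS-4718, 1.74, 1.87 and 2.31 with GSK2256098, 1.43, 1.18 and 0.902 with IN10018, 0.413, 0.522 and 0.840 with PROTAC FAK degrader 1, 7.62, 5.50 and 6.76 with GSK215 and 5.95, 6.40 and 6.85 with BSJ-04-0146, in CPM. No GSK215 or BSJ-04-0146 library was below 5.50 and no library with PROTAC FAK degrader 1 was above 0.840. Log2 fold changes of *Col27a1* were 2.29 (SE 0.18, adjusted p = 3.1e-14) with GSK215, 2.25 (SE 0.18, adjusted p = 6.09e-14) with BSJ-04-0146, 0.99 (SE 0.19, adjusted p = 5.79e-05) with VS-4718 and -1.19 (SE 0.27, adjusted p = 0.000170) with PROTAC FAK degrader 1. The change with GSK215 was the largest past the test among fibrillar chains with a mean of at least 1 CPM. With VS-4718 *Col11a2* passed as higher without VS-4718 replicate 3 (0.36, adjusted p = 0.0453).

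Markers of other cell states moved in the same libraries. The summed SC markers were 57.7 to 63.6 CPM with defactinib, 55.6 to 59.3 with GSK2256098, 38.2 to 42.0 with IN10018, 202 to 208 CPM with GSK215, 180 to 198 with BSJ-04-0146, 92.9 to 104.5 with VS-4718 and 26.3 to 29.6 with PROTAC FAK degrader 1. The summed fibroblast markers, carried by *Pdgfrb* and *Pdgfra*, were 34.1 to 39.3 CPM in DMSO, 91.0 to 95.6 with GSK215, 66.2 to 78.1 with BSJ-04-0146 and 39.1 to 40.7 with PROTAC FAK degrader 1, and with the kinase inhibitors they were 35.7 to 52.5. The summed macrophage markers were 3.48 to 4.00 CPM in DMSO, 10.8 to 11.7 with PROTAC FAK degrader 1, 5.93 to 7.62 with GSK215, 7.602 to 9.04 with BSJ-04-0146 and 3.61 to 6.02 with the kinase inhibitors. *Cd68* made up most of this sum, with a log2 fold change of 1.70 with PROTAC FAK degrader 1, where that of *Csf1r* was -0.62. The summed perineurial markers were 267 to 273 in DMSO, 129 to 135 with GSK215, 121.0 to 122.0 with BSJ-04-0146, 154 to 178 with VS-4718, 234 to 259 with defactinib, 234 to 240.4 with GSK2256098, 338 to 351 with IN10018 and 277 to 291 with PROTAC FAK degrader 1. The perineurial sum followed *Slc2a1*, with log2 fold changes of -1.05 with GSK215 and -1.18 with BSJ-04-0146. The other perineurial markers were positive there, *Cldn1* at 0.72 and 0.288 and *Itgb4* at 0.162 and 0.301, so the list did not fall together. The summed endothelial markers stayed between 0.209 and 0.790 CPM. *Lum* was at 0 and *Thy1* and *Dpt* near 0 in every library. The part of these markers in the collagen values was not tested.

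**Figure D3:**
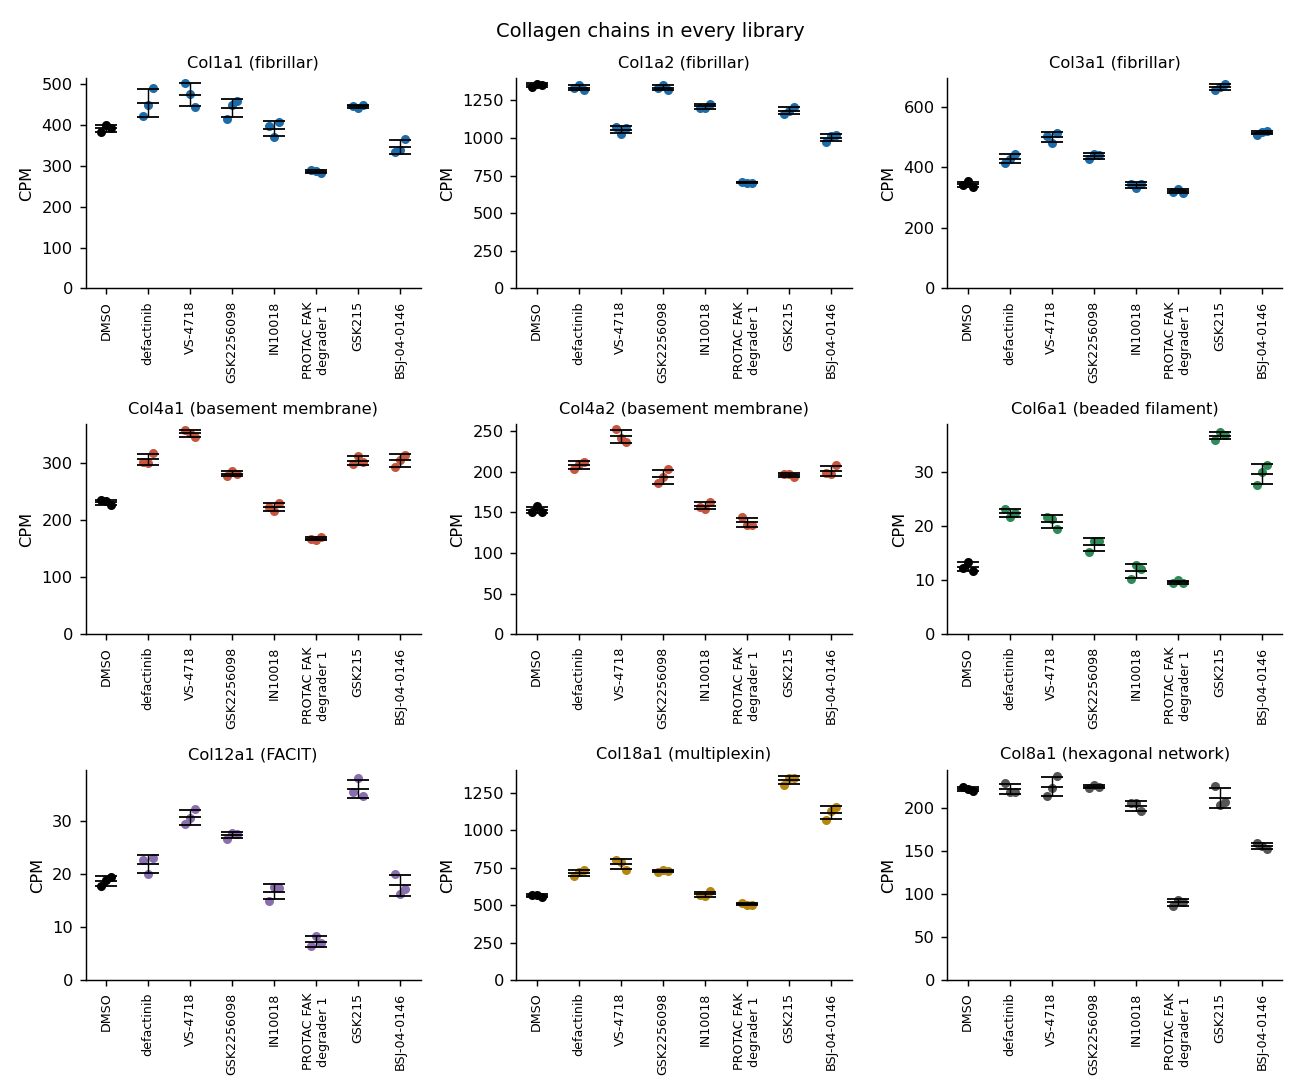
CPM of 9 collagen chains in each library, by group; points are libraries, with the mean and the SD (n = 3) in black, and every axis starts at 0. *Col18a1* was at 1069 CPM or more in every GSK215 and BSJ-04-0146 library and at 569 or less in every DMSO library, and *Col8a1* was at 93.6 CPM or less in the libraries with PROTAC FAK degrader 1 and at 152 or more in all others.

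Among basement membrane chains, the partners *Col4a1* and *Col4a2* moved together. *Col4a1* stood at 234, 233 and 226 in the DMSO libraries, 301, 301 and 317 with defactinib, 358, 353 and 346 with VS-4718, 278, 286 and 281 with GSK2256098, 224, 215 and 229.5 with IN10018, 167, 165 and 169.8 with PROTAC FAK degrader 1, 299, 313 and 302 with GSK215 and 293, 306 and 315 with BSJ-04-0146, in CPM. *Col4a2* stood at 150.5, 158 and 151 in the DMSO libraries, 203, 209 and 212 with defactinib, 252, 242 and 236 with VS-4718, 185, 194 and 203 with GSK2256098, 157, 154 and 163 with IN10018, 144, 134 and 135 with PROTAC FAK degrader 1, 197, 197 and 193 with GSK215 and 198, 196 and 208 with BSJ-04-0146, in CPM. For both genes the VS-4718 libraries were highest, the libraries with PROTAC FAK degrader 1 were below all DMSO libraries, and IN10018 overlapped DMSO. With VS-4718 *Col4a1* rose by 0.61 (SE 0.0313, adjusted p = 1.16e-18) and *Col4a2* by 0.67 (SE 0.0348, adjusted p = 1.44e-18). Defactinib gave 0.41 and 0.44, GSK215 0.40 and 0.35, BSJ-04-0146 0.40 and 0.39, and GSK2256098 0.28 and 0.34, all past the test. With PROTAC FAK degrader 1 *Col4a1* fell by 0.47 (SE 0.0326, adjusted p = 6.96e-16), and *Col4a2* fell by 0.15 (SE 0.0364, adjusted p = 0.000368), the latter lost with library totals alone (-0.070, adjusted p = 0.082). The interval of the change with IN10018 was -0.12 to 0.010 for *Col4a1* and -0.027 to 0.12 for *Col4a2*.

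The tissue-restricted type IV chains were scarce. *Col4a4* stood at 1.49, 1.13 and 1.65 in the DMSO libraries, 1.57, 1.23 and 1.85 with defactinib, 1.10, 1.53 and 1.14 with VS-4718, 0.983, 1.39 and 1.22 with GSK2256098, 1.52, 1.47 and 1.13 with IN10018, 2.62, 2.09 and 2.21 with PROTAC FAK degrader 1, 1.51, 1.98 and 1.88 with GSK215 and 2.00, 1.46 and 2.13 with BSJ-04-0146, in CPM. *Col4a4*, a chain of the kidney filter, rose with PROTAC FAK degrader 1, where all 3 libraries were above the DMSO libraries (0.71, SE 0.21, adjusted p = 0.00367), while no other compound passed the test. *Col4a5* had 9 to 15 counts per DMSO library and 1 or 2 with PROTAC FAK degrader 1, a fall that passed the test (adjusted p = 0.000295), and with VS-4718 it passed as lower without VS-4718 replicate 1 (adjusted p = 0.0299).

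*Col6a1* and *Col6a2*, type VI chains of beaded filaments, rose with defactinib, VS-4718, GSK215 and BSJ-04-0146. *Col6a1* stood at 12.3, 13.4 and 11.8 in the DMSO libraries, 23.2, 21.7 and 22.5 with defactinib, 21.8, 21.4 and 19.4 with VS-4718, 15.2, 17.3 and 17.2 with GSK2256098, 10.3, 12.7 and 12.1 with IN10018, 9.42, 9.96 and 9.45 with PROTAC FAK degrader 1, 36.0, 37.4 and 37.0 with GSK215 and 27.6, 30.0 and 31.3 with BSJ-04-0146, in CPM. Libraries with defactinib, VS-4718, GSK2256098, GSK215 and BSJ-04-0146 were all above the DMSO libraries, those with PROTAC FAK degrader 1 were all below, and IN10018 overlapped DMSO. *Col6a1* rose by 1.55 (SE 0.0688, adjusted p = 1.63e-21) with GSK215, 1.24 (SE 0.0712, adjusted p = 5.14e-18) with BSJ-04-0146, 0.84 (SE 0.0712, adjusted p = 1.75e-11) with defactinib and 0.73 (SE 0.0713, adjusted p = 5.8e-11) with VS-4718, by 0.40 with GSK2256098, and fell by 0.38 (SE 0.0844, adjusted p = 0.000118) with PROTAC FAK degrader 1. *Col6a2* stood at 1.22, 0.602 and 0.453 in the DMSO libraries, 1.05, 1.68 and 1.89 with defactinib, 0.876, 1.62 and 1.33 with VS-4718, 1.43, 1.02 and 1.49 with GSK2256098, 1.11, 0.757 and 1.17 with IN10018, 0.597, 0.313 and 0.630 with PROTAC FAK degrader 1, 2.17, 2.40 and 2.81 with GSK215 and 1.65, 1.74 and 2.07 with BSJ-04-0146, in CPM. *Col6a2*, the obligate partner of *Col6a1*, was above every DMSO library in all GSK215 and BSJ-04-0146 libraries, with log2 fold changes of 1.73 (SE 0.29, adjusted p = 2.56e-06) and 1.28 (SE 0.30, adjusted p = 0.000429). Its rises with defactinib (1.05, SE 0.30, adjusted p = 0.00866) and VS-4718 (0.76, SE 0.30, adjusted p = 0.0445) came with libraries that overlapped DMSO. With GSK2256098 it passed without DMSO replicate 1 (1.29, adjusted p = 0.0127). Both were lost without DMSO replicate 2 or 3, at 0.90 and 0.79 with defactinib (adjusted p = 0.0551 and 0.0808) and 0.61 and 0.49 with VS-4718 (adjusted p = 0.177 and 0.262). The VS-4718 call was also lost with limma-trend (0.15, adjusted p = 0.0590) and in a fit of only the 6 libraries compared (0.75, adjusted p = 0.0617). The rise with defactinib was also lost without defactinib replicate 3 (0.86, adjusted p = 0.0737), and that with VS-4718 without VS-4718 replicate 2 or 3 (0.56 and 0.71, adjusted p = 0.209 and 0.105). *Col6a4* stood at 0.814, 0.865 and 0.577 in the DMSO libraries, 0.567, 0.409 and 0.984 with defactinib, 0.495, 0.699 and 0.494 with VS-4718, 0.536, 0.489 and 0.678 with GSK2256098, 0.785, 0.616 and 1.13 with IN10018, 0.827, 0.574 and 0.368 with PROTAC FAK degrader 1, 1.05, 0.534 and 0.592 with GSK215 and 0.589, 0.705 and 0.354 with BSJ-04-0146, in CPM. *Col6a4*, a chain read at 6 to 25 counts per library, passed no test, with intervals as wide as -0.82 to 0.65 for GSK215 (edgeR, adjusted p = 0.859).

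Side by side, the beaded-filament chains had the highest median of the 3 classes with 6 of the 7 compounds. With 3 chains this median is the value of 1 chain, *Col6a1* with every compound except IN10018. With IN10018 it was the uncalled *Col6a4*, while *Col6a1* was at -0.10. The basement membrane median includes the scarce *Col4a4* and *Col4a5*. With GSK2256098 it was near 0 although *Col4a1* and *Col4a2* rose by 0.28 and 0.34. The order of medians is therefore not a result about whole classes. With GSK215 the median log2 fold change was 0.62 over the 9 fibrillar chains (8 higher, 1 lower), 0.35 over the 4 basement membrane chains (2 higher) and 1.55 over the 3 beaded-filament chains (2 higher). BSJ-04-0146 gave medians of 0.58 (6 higher, 3 lower), 0.39 (2 higher) and 1.24 (2 higher). With defactinib they were 0.32 (6 higher), 0.27 (2 higher) and 0.84 (2 higher), and with VS-4718 0.30 (6 higher, 1 lower), 0.21 (2 higher) and 0.73 (2 higher). GSK2256098 gave 0.20 (3 higher), 0.023 (2 higher) and 0.40 (1 higher), and IN10018 -0.048 (2 lower), -0.050 (none called) and 0.17 (none called). With PROTAC FAK degrader 1 all 3 medians were negative, at -0.45 (1 higher, 6 lower), -0.31 (1 higher, 3 lower) and -0.38 (1 lower). Chains are not replicates of a class, so the difference between classes has no test.

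**Figure D4:**
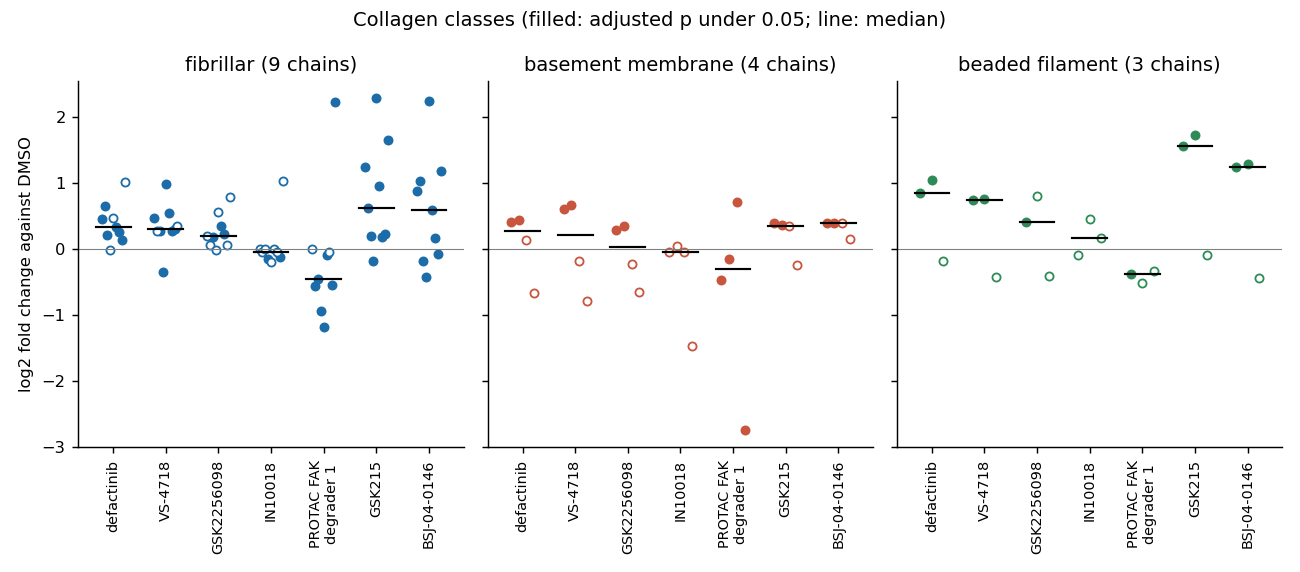
Log2 fold change against DMSO of each fibrillar, basement membrane and beaded-filament chain with the 7 compounds; filled points passed an adjusted p of 0.05, open points did not, and black lines are class medians. The 2 filled beaded-filament points with GSK215, at 1.55 and 1.73, are *Col6a1* and *Col6a2*.

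As shares of summed collagen CPM, which does not depend on scaling between libraries, the fibrillar chains made up 68.9% ± 0.247 (SD, n = 3) in DMSO, 59.4% ± 0.319 with GSK215 and 58.6% ± 0.159 with BSJ-04-0146. The basement membrane share was 9.27% ± 0.0749 in DMSO and highest with VS-4718, at 12.7% ± 0.139. Beaded-filament chains made up 0.337% ± 0.0233 in DMSO and 0.739% ± 0.00379 with GSK215. The share of *Col18a1* with *Col15a1* went from 13.5% ± 0.214 in DMSO to 24.6% ± 0.224 with GSK215 and 24.2% ± 0.293 with BSJ-04-0146. Shares of summed RPKM differed in level and kept this order for the fibrillar chains (68.5% in DMSO, 58.5% with GSK215), for the beaded-filament chains (0.470% and 1.04%) and for the multiplexins (14.2% and 25.9%).

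*Col18a1*, found in the basement membranes of vessels and nerves, had the largest gain in CPM. *Col18a1* stood at 569, 565 and 551 in the DMSO libraries, 694, 719 and 734 with defactinib, 799, 784 and 736 with VS-4718, 721, 735 and 728 with GSK2256098, 568, 559 and 591 with IN10018, 517, 503 and 503 with PROTAC FAK degrader 1, 1301, 1348 and 1344 with GSK215 and 1069, 1129 and 1151 with BSJ-04-0146, in CPM. Every library with defactinib, VS-4718, GSK2256098, GSK215 or BSJ-04-0146 was above all DMSO libraries, and IN10018 overlapped DMSO. Log2 fold changes were 1.25 (SE 0.0333, adjusted p = 2.22e-28) with GSK215, 0.99 (SE 0.0332, adjusted p = 1.84e-25) with BSJ-04-0146, 0.46 with VS-4718, 0.37 with GSK2256098 and 0.35 with defactinib. PROTAC FAK degrader 1 lowered it by 0.15 (SE 0.0332, adjusted p = 0.000175), a call lost with library totals alone (-0.065, adjusted p = 0.0734).

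*Col8a1* and *Col7a1* rose with no compound. *Col8a1* stood at 224, 222 and 220.2 in the DMSO libraries, 229, 219 and 219 with defactinib, 214, 223 and 237 with VS-4718, 223, 227 and 224 with GSK2256098, 206, 206 and 196 with IN10018, 86.4, 93.6 and 90.5 with PROTAC FAK degrader 1, 225, 204 and 207 with GSK215 and 159, 156 and 152 with BSJ-04-0146, in CPM. The libraries with PROTAC FAK degrader 1 were far below all others and those with BSJ-04-0146 were next. *Col8a1* fell by 1.30 (SE 0.0384, adjusted p = 1.15e-27) with PROTAC FAK degrader 1, the largest fall of the chains above 100 CPM in DMSO, by 0.51 (SE 0.0369, adjusted p = 4.19e-15) with BSJ-04-0146 and by 0.13 with IN10018, and this last call was lost without IN10018 replicate 3 (-0.11, adjusted p = 0.0801). With GSK215 the change of -0.071 passed in a fit of only the 6 libraries compared (-0.071, adjusted p = 0.0420) and without GSK215 replicate 1 (-0.12, adjusted p = 0.0106). *Col7a1* stood at 41.3, 46.4 and 44.2 in the DMSO libraries, 39.8, 41.2 and 40.8 with defactinib, 34.9, 33.2 and 33.2 with VS-4718, 44.9, 47.4 and 45.5 with GSK2256098, 43.3, 43.6 and 46.7 with IN10018, 27.3, 22.7 and 23.7 with PROTAC FAK degrader 1, 27.6, 31.8 and 30.1 with GSK215 and 35.8, 37.8 and 40.2 with BSJ-04-0146, in CPM. Every library with defactinib, VS-4718 and the 3 PROTACs was below all DMSO libraries. *Col7a1* fell by 0.84 (SE 0.0593, adjusted p = 1.1e-15) with PROTAC FAK degrader 1, 0.56 with GSK215, 0.38 with VS-4718 and 0.22 with BSJ-04-0146, the last lost with library totals alone (-0.11, adjusted p = 0.101). With defactinib its change of -0.12 passed without DMSO replicate 1 (-0.16, adjusted p = 0.0478). The promoter windows of both genes, shown above, hold GC boxes, as do those of 15 of the 20 collagen genes with a window.

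FACIT chains sit on the surface of fibrils and did not move as a group. *Col16a1* stood at 43.9, 47.6 and 45.1 in the DMSO libraries, 44.7, 49.0 and 45.9 with defactinib, 50.3, 46.7 and 46.4 with VS-4718, 50.9, 47.9 and 49.2 with GSK2256098, 45.9, 46.5 and 49.1 with IN10018, 36.0, 35.0 and 36.6 with PROTAC FAK degrader 1, 37.0, 38.3 and 39.4 with GSK215 and 32.5, 35.7 and 39.0 with BSJ-04-0146, in CPM. *Col16a1* was below every DMSO library with each of the 3 PROTACs, at -0.35 with PROTAC FAK degrader 1, -0.25 with GSK215 and -0.35 with BSJ-04-0146, and overlapped DMSO with defactinib, VS-4718 and IN10018. *Col12a1* stood at 17.6, 18.9 and 19.4 in the DMSO libraries, 22.6, 19.9 and 23.1 with defactinib, 29.3, 30.5 and 32.2 with VS-4718, 26.6, 27.7 and 27.5 with GSK2256098, 14.9, 17.5 and 17.4 with IN10018, 6.34, 8.35 and 6.99 with PROTAC FAK degrader 1, 35.5, 37.9 and 34.6 with GSK215 and 20.0, 16.2 and 17.1 with BSJ-04-0146, in CPM. *Col12a1*, a chain of tissues under load, rose with GSK215 (0.95, SE 0.0711, adjusted p = 1.54e-14), VS-4718 (0.72, SE 0.0696, adjusted p = 5.83e-11) and GSK2256098 (0.55, SE 0.0714, adjusted p = 5.18e-07), fell with PROTAC FAK degrader 1 (-1.37, SE 0.0922, adjusted p = 2.22e-16) and was not separated from DMSO by BSJ-04-0146 (-0.070, 95% interval -0.23 to 0.091). A small rise with defactinib (0.23, SE 0.0734, adjusted p = 0.0201) was lost without DMSO replicate 1 (0.19, adjusted p = 0.109), defactinib replicate 1 (0.20, adjusted p = 0.0821) or defactinib replicate 3 (0.18, adjusted p = 0.127).

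*Col20a1*, a FACIT chain at low level, rose with the 3 PROTACs. *Col20a1* stood at 2.49, 2.33 and 1.94 in the DMSO libraries, 1.79, 1.96 and 2.44 with defactinib, 2.48, 1.57 and 1.94 with VS-4718, 1.79, 1.87 and 2.12 with GSK2256098, 2.03, 2.46 and 2.17 with IN10018, 8.68, 9.39 and 8.98 with PROTAC FAK degrader 1, 5.65, 4.70 and 5.58 with GSK215 and 3.71, 5.04 and 5.20 with BSJ-04-0146, in CPM. All PROTAC libraries were above all other libraries. Log2 fold changes were 2.00 (SE 0.14, adjusted p = 1.48e-15) with PROTAC FAK degrader 1, 1.24 (SE 0.16, adjusted p = 1.02e-08) with GSK215 and 1.05 (SE 0.16, adjusted p = 5e-07) with BSJ-04-0146, while the 4 kinase inhibitors gave -0.22 to -0.020, none past the test. *Col20a1*, *Col5a3* and *Col4a4* were the 3 chains that rose with PROTAC FAK degrader 1. *Col14a1* averaged 0.675 CPM in DMSO and fell with PROTAC FAK degrader 1 (-1.07, SE 0.40, adjusted p = 0.0181), a call lost without DMSO replicate 1 (-0.98, adjusted p = 0.0544) or PROTAC FAK degrader 1 replicate 2 (-0.96, adjusted p = 0.0636). Of the type IX chains, *Col9a3* rose with BSJ-04-0146 (1.37, SE 0.23, adjusted p = 2.4e-06), GSK215 (1.05, SE 0.23, adjusted p = 0.000191) and defactinib (0.77, SE 0.23, adjusted p = 0.0137). The defactinib call was lost without DMSO replicate 1 or 2 or defactinib replicate 1 (0.61 to 0.67, adjusted p 0.0678 to 0.0922), and with VS-4718 *Col9a3* passed as lower without DMSO replicate 2 (-0.73, adjusted p = 0.0490). *Col9a2* had 0, 1 and 3 counts in the DMSO libraries, 12, 11 and 8 with GSK215 and 16, 13 and 13 with BSJ-04-0146. In every other library it had at most 7. Both rises were called (edgeR, adjusted p = 5.12e-05 and 2.26e-06). However, *Col9a2* passed the filter on low counts only through these 2 groups, so its calls there were favored in advance and are not support. It is counted among the higher chains of both compounds above.

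The ratio of partner chains within a library does not depend on depth or scaling. A total of 5 pairs had both chains tested, which gives 35 comparisons with DMSO, and an exact permutation test of 3 against 3 libraries cannot go below p = 0.10 (0.206 after Benjamini-Hochberg adjustment), so none could pass 0.05. The count ratio of *Col1a1* to *Col1a2* was 0.290 ± 0.00386 (SD, n = 3) in DMSO and was higher in every library of all 7 compounds. It was 0.450 ± 0.0290 with VS-4718, 0.406 ± 0.00568 with PROTAC FAK degrader 1 and 0.378 ± 0.00721 with GSK215, and 0.323 to 0.346 with the others, with differences of 0.15 to 0.63 in log2 ratio (two-sided exact permutation p = 0.1 for each compound). The ratio of *Col4a1* to *Col4a2*, whose annotated starts overlap, was 1.51 ± 0.0403 in DMSO. It was below all DMSO libraries with PROTAC FAK degrader 1 (1.22 ± 0.0525), IN10018 (1.41 ± 0.0160) and VS-4718 (1.45 ± 0.0248), each at an exact permutation p = 0.1, and overlapped DMSO with the other 4 compounds. The ratio of *Col5a1* to *Col5a2* was 1.42 ± 0.0136 in DMSO. It was above all DMSO libraries with PROTAC FAK degrader 1 (2.02 ± 0.0456), BSJ-04-0146 (1.68 ± 0.0547), GSK2256098 (1.59 ± 0.0462), defactinib (1.55 ± 0.0337) and IN10018 (1.49 ± 0.0173), each at an exact permutation p = 0.1. *Col6a1* to *Col6a2* stood at 19.5 ± 8.32 in DMSO and overlapped DMSO with each compound, and *Col11a1* to *Col11a2* was above all DMSO libraries with GSK215 (4.30) and PROTAC FAK degrader 1 (4.01) against 2.72 in DMSO.

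**Figure D5:**
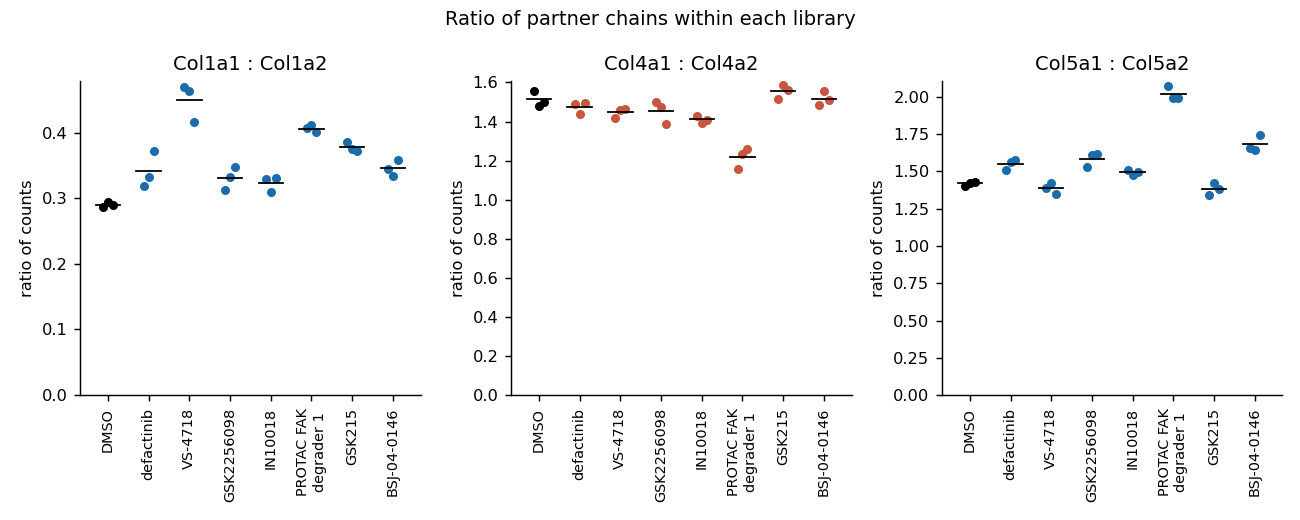
Ratio of the counts of partner chains within each library, by group; points are libraries and lines are group means, and each axis starts at 0. The *Col1a1* to *Col1a2* ratio is 0.290 in DMSO and higher in every library of each compound, while the *Col4a1* to *Col4a2* ratio is lowest with PROTAC FAK degrader 1 at 1.22.

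A total of 3 pairs of compounds given at the same concentration and for the same time were compared, each with p adjusted over all 16070 genes. PROTAC FAK degrader 1 and defactinib, a PROTAC and a kinase inhibitor at 1 μM, differed in 22 of 25 chains, 19 lower and 3 higher with the PROTAC, where 68.9% of all genes passed (34.9% higher and 34.0% lower). The largest gaps among chains above 10 CPM were in *Col12a1* (-1.60, SE 0.0904, adjusted p = 9.36e-19), *Col8a1* (-1.30, SE 0.0385, adjusted p = 9.91e-28) and *Col6a1* (-1.23, SE 0.0775, adjusted p = 3.21e-17). *Col1a2* differed by -0.92 (SE 0.0282, adjusted p = 3.22e-27) and *Col4a1* by -0.87 (SE 0.0324, adjusted p = 1.45e-24). *Col6a4*, *Col9a2* and *Col9a3* did not pass, with intervals of -0.91 to 0.61, -3.49 to -0.060 and -0.98 to -0.038 (edgeR, adjusted p = 0.738, 0.0611 and 0.0506). *Col20a1*, *Col5a3* and *Col4a4* were higher with the PROTAC, by 2.12, 1.21 and 0.57. The call of *Col4a4* was lost without defactinib replicate 2 (0.43, adjusted p = 0.0928) or PROTAC FAK degrader 1 replicate 1 (0.47, adjusted p = 0.0858), and that of *Col4a5* without defactinib replicate 2 (-1.40, adjusted p = 0.127) or with limma-trend (-0.082, adjusted p = 0.0862). *Col9a2* passed without defactinib replicate 2 (-2.07, adjusted p = 0.0367) or PROTAC FAK degrader 1 replicate 1 (adjusted p = 0.00461), and *Col9a3* without defactinib replicate 3 (-0.58, adjusted p = 0.0489), without PROTAC FAK degrader 1 replicate 1 (-0.62, adjusted p = 0.0437) or with limma-trend (-0.14, adjusted p = 0.0230).

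VS-4718 and defactinib, both kinase inhibitors at 1 μM, differed in 11 of 25 chains, 7 higher and 4 lower with VS-4718, where 34.0% of all genes passed (18.0% higher and 16.0% lower). *Col1a2* was lower (-0.34, SE 0.0279, adjusted p = 1.81e-12) and *Col12a1* (0.49, SE 0.0684, adjusted p = 3.6e-07), *Col3a1* (0.22, SE 0.0314, adjusted p = 4.53e-07), *Col4a1* (0.20, SE 0.0309, adjusted p = 2.11e-06) and *Col4a2* (0.23, SE 0.0343, adjusted p = 1.32e-06) were higher with VS-4718. The interval of the difference was narrow for *Col5a1* (95% interval -0.060 to 0.071) and *Col8a1* (-0.056 to 0.087), and wider for *Col6a1* (-0.24 to 0.025). Calls of *Col11a2* were lost without defactinib replicate 3 (-0.34, adjusted p = 0.0733) or VS-4718 replicate 3 (-0.28, adjusted p = 0.120). Those of *Col27a1* were lost without defactinib replicate 1 (0.45, adjusted p = 0.102) or 3 (0.50, adjusted p = 0.0663) or VS-4718 replicate 1 (0.40, adjusted p = 0.148), and those of *Col18a1* without defactinib replicate 1 (0.082, adjusted p = 0.0910) or VS-4718 replicate 1 (0.079, adjusted p = 0.105).

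GSK215 and BSJ-04-0146, the PROTACs at 0.1 μM, differed in 11 chains, 9 higher and 2 lower with GSK215, where 22.5% of all genes passed (9.88% higher and 12.6% lower). *Col12a1* showed the largest gap (1.02, SE 0.0756, adjusted p = 2.74e-13), followed among the higher chains by *Col8a1* (0.44, SE 0.0376, adjusted p = 1.03e-11), *Col3a1* (0.37, SE 0.0315, adjusted p = 1.14e-11) and *Col1a1* (0.37, SE 0.0444, adjusted p = 5.08e-08). *Col11a2* (-0.41, SE 0.13, adjusted p = 0.0184) and *Col7a1* (-0.34, SE 0.0622, adjusted p = 6.39e-05) were lower with GSK215, the former lost without GSK215 replicate 1 (-0.28, adjusted p = 0.167) or BSJ-04-0146 replicate 3 (-0.35, adjusted p = 0.0887). *Col16a1* passed as higher with GSK215 without BSJ-04-0146 replicate 3 (0.17, adjusted p = 0.0443). No type IV chain passed, and the interval of the difference was narrow for *Col4a1* (95% interval -0.065 to 0.064), *Col4a2* (-0.11 to 0.036) and *Col5a1* (-0.043 to 0.089), and wider for *Col27a1* (-0.25 to 0.34).

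Genes that make, process or bind collagen were read from 6 lists with 71 genes in all, 55 of them tested, and values in brackets are log2 fold changes against DMSO past the edgeR test. The shares of all genes called are those given above. Of 13 tested genes for prolyl and lysyl hydroxylation, 10 rose and none fell with defactinib, 1 rose and 9 fell with PROTAC FAK degrader 1, and 4 rose and 5 fell with GSK215, with list medians of 0.17, -0.20 and 0.010. *Crtap*, of the prolyl 3-hydroxylation complex, rose with VS-4718 (0.43), defactinib (0.36), GSK215 (0.26), GSK2256098 (0.26) and BSJ-04-0146 (0.096). It fell with PROTAC FAK degrader 1 (-0.82). *P3h2*, a prolyl 3-hydroxylase, fell with PROTAC FAK degrader 1 (-0.80) and BSJ-04-0146 (-0.67) and rose with VS-4718 (0.19). *P4ha2*, a catalytic subunit of prolyl 4-hydroxylase, fell with BSJ-04-0146 (-0.77), GSK215 (-0.72), VS-4718 (-0.50) and GSK2256098 (-0.11). It rose with IN10018 (0.36) and defactinib (0.15). Of 8 genes for folding and export, 3 rose and 4 fell with PROTAC FAK degrader 1 and 3 rose and 2 fell with GSK215, with medians of -0.11 and 0.027. *Fkbp14*, a prolyl isomerase of the endoplasmic reticulum, rose with GSK215 (1.07), BSJ-04-0146 (0.82), VS-4718 (0.48) and defactinib (0.39). *Creb3l2*, a transcription factor for secretory genes, rose with GSK215 (0.83), PROTAC FAK degrader 1 (0.81) and BSJ-04-0146 (0.64). *Sec23a*, a coat protein of export vesicles, rose with PROTAC FAK degrader 1 (0.61), BSJ-04-0146 (0.20) and GSK215 (0.16).

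Of 9 tested genes for propeptide processing and cross-linking, none rose and 5 fell with PROTAC FAK degrader 1, while 5 rose and 2 fell with GSK215, with medians of -0.32 and 0.22. *Pcolce* and *Pcolce2*, which enhance cleavage of the C-propeptide, fell by 1.12 and 1.59 with PROTAC FAK degrader 1. Both also fell with BSJ-04-0146 (-0.34 and -0.52), and *Pcolce2* fell with GSK215 (-0.48). With VS-4718 *Pcolce* fell (-0.23) and *Pcolce2* rose slightly (0.10). *Loxl1*, a cross-linking oxidase, fell by 1.11 with PROTAC FAK degrader 1. It rose with GSK215 (0.85), VS-4718 (0.67), BSJ-04-0146 (0.48), GSK2256098 (0.41) and defactinib (0.23). Of 6 genes for proline synthesis and reuse, all 6 fell with VS-4718 and 5 fell with GSK215, with medians of -0.42 and -0.56, and 2 rose and 3 fell with PROTAC FAK degrader 1, with a median of -0.17. *Pycr1* and *Aldh18a1*, enzymes of proline synthesis, fell with GSK215 (-1.08 and -1.11) and BSJ-04-0146 (-1.12 and -1.16) and rose with PROTAC FAK degrader 1 (2.04 and 1.02). Both also fell with VS-4718 (-0.86 and -0.78) and GSK2256098 (-0.42 and -0.34) and rose with IN10018 (0.30 and 0.18). *Aldh18a1* rose slightly with defactinib (0.10), where 1 gene of the list rose and 4 fell, with a median of -0.16. The list had 5 lower and none higher with GSK2256098 and 1 higher and 5 lower with BSJ-04-0146, with medians of -0.20 and -0.63. *Prodh*, which degrades proline, fell with BSJ-04-0146 (-0.99), GSK215 (-0.74), VS-4718 (-0.615), PROTAC FAK degrader 1 (-0.35) and defactinib (-0.17).

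Of 9 fibril-associated matrix proteins, 1 rose and 7 fell with PROTAC FAK degrader 1, and 6 rose and 3 fell with GSK215, with medians of -1.06 and 0.88. *Thbs1*, encoding thrombospondin 1, fell with PROTAC FAK degrader 1 (-1.57) and IN10018 (-0.28). It rose with GSK215 (1.37), BSJ-04-0146 (0.89), VS-4718 (0.725), defactinib (0.44) and GSK2256098 (0.29). *Tnc*, encoding tenascin C, fell with PROTAC FAK degrader 1 (-1.12) and BSJ-04-0146 (-0.39) and rose with defactinib (0.39), VS-4718 (0.38) and GSK215 (0.20). *Nid1*, whose product links laminin to type IV collagen, fell with PROTAC FAK degrader 1 (-1.06), GSK215 (-0.40) and BSJ-04-0146 (-0.61), also where *Col4a1* and *Col4a2* rose. Smaller falls of *Nid1* came with VS-4718 (-0.19), GSK2256098 (-0.13) and IN10018 (-0.12). Of 10 collagen receptors and uptake genes, 5 rose and 1 fell with GSK215, and 3 rose and 4 fell with PROTAC FAK degrader 1, with medians of 0.098 and 0.13. *Ddr1*, a collagen receptor kinase, rose with GSK215 (0.99), BSJ-04-0146 (0.81), VS-4718 (0.67), GSK2256098 (0.35) and defactinib (0.31). *Ddr2* fell with BSJ-04-0146 (-0.71), GSK215 (-0.39), VS-4718 (-0.14) and IN10018 (-0.12) and rose with PROTAC FAK degrader 1 (0.25) and defactinib (0.16). *Adgrg6*, an adhesion receptor of SCs that binds type IV collagen, fell with PROTAC FAK degrader 1 (-0.96) and IN10018 (-0.31). It rose with defactinib (0.36), GSK215 (0.35) and VS-4718 (0.31). With IN10018 4 of the 9 fibril-associated genes fell and none rose, and the other 5 lists had 0 to 3 genes higher and 0 to 3 lower.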

How the data were processed

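RNA from 24 cultures of MS03 cells was sequenced from poly(A) libraries, and the authors deposited 1 table of raw counts per gene. Per the labels, reads were trimmed with Trimmomatic 0.36, aligned to GRCm38 with STAR 2.5.2b and counted with featureCounts (Subread 1.5.2). The annotation release and the strand setting are not given in the sources used here. Genes that passed edgeR's filterByExpr (16070 of 49315) were tested with edgeR 4.0.16 in R 4.3.3 by the quasi-likelihood test with TMM scaling (trimmed mean of M values), 1 model over 8 groups and Benjamini-Hochberg adjustment over all tested genes. Library totals of 14472462 to 27449516 counts set the precision, and scarce chains are given as counts. CPM used TMM-scaled library sizes, and RPKM divided it by the longest protein-coding transcript of GENCODE M21. The test was checked on simulated counts, in which a small set of genes was changed in the defactinib libraries alone, equally up and down. That setting does not cover the PROTAC comparisons, where most genes passed the test.

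Values in every library are given for up to 3 chains of each class with the highest mean CPM and for the chain of each class with the largest called change against DMSO and a mean of at least 1 CPM. *Col1a1* was added for the ratio of type I chains. Of each pathway list, up to 3 genes with the largest called change and a mean of at least 5 CPM are named. The collagen chains and all lists were chosen with earlier results of these data known. Alternatives were DESeq2 1.42.0, limma-trend (limma 3.58.1) on log2(CPM + 4), library totals alone, no filter, a replicate block, only the 6 libraries compared and leaving out each library. RPKM shares and the union of exons as length were added after the data were seen.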

Additional observations from a re-analysis of the deposited data

Results flagged for a closer look

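In 11 cases, 2 compounds at the same concentration changed a collagen chain past the edgeR test in opposite directions against DMSO, and the difference between the compounds was itself past the test. The share of all genes with such opposite calls was not counted, so these cases are not read as particular to collagen. Of all genes, 68.9% differed between PROTAC FAK degrader 1 and defactinib and 22.5% between GSK215 and BSJ-04-0146. Differences below are log2, with edgeR's Benjamini-Hochberg adjusted p. PROTAC FAK degrader 1 minus defactinib gave 9 such chains, lower than DMSO with the PROTAC and higher with the kinase inhibitor. Among fibrillar chains these were *Col1a1* (-0.67, adjusted p = 1.45e-16), *Col3a1* (-0.42, adjusted p = 9.93e-15), *Col5a2* (-0.68, adjusted p = 3.75e-23) and *Col11a2* (-1.22, adjusted p = 2.15e-09). The basement membrane partners *Col4a1* and *Col4a2* were at -0.87 (adjusted p = 1.45e-24) and -0.59 (adjusted p = 8.42e-18), and the beaded-filament chain *Col6a1* at -1.23 (adjusted p = 3.21e-17). *Col12a1* had the widest gap at -1.60 (adjusted p = 9.36e-19), and *Col18a1* was at -0.50 (adjusted p = 1.80e-16). The rise of *Col12a1* with defactinib did not pass without DMSO replicate 1, defactinib replicate 1 or defactinib replicate 3 (adjusted p 0.0821 to 0.127). For *Col3a1*, *Col4a2* and *Col18a1* the lower value with the PROTAC did not pass with library totals alone. GSK215 minus BSJ-04-0146 gave *Col1a1* (0.37, adjusted p = 5.08e-08) and *Col5a2* (0.31, adjusted p = 4.84e-11), each higher than DMSO with GSK215 and lower with BSJ-04-0146, and neither lower value passed with library totals alone. Groups of 3 were too small for a test of single outlying libraries.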

How the results depend on the processing

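Of 250 chain results from edgeR, 141 were past the threshold, and 121 of these kept their direction and call under every alternative. The number of chains called stayed within 1.5 times the number given above in all 10 comparisons, the lowest and highest being 11 and 13 with defactinib, 13 and 15 with VS-4718, 7 and 8 with GSK2256098, 2 and 4 with IN10018, 16 and 20 with PROTAC FAK degrader 1, 20 and 21 with GSK215, and 17 and 21 with BSJ-04-0146. Between compounds they were 9 and 11 for VS-4718 and defactinib, 21 and 23 for PROTAC FAK degrader 1 and defactinib, and 10 and 11 for GSK215 and BSJ-04-0146. Library totals alone moved the all-gene median, on the log2 scale, to 0.143 with GSK215 and 0.126 with BSJ-04-0146, and *Col5a2* with BSJ-04-0146 turned from -0.088 to 0.021. Leaving out 1 library ended 15 calls and added 10, each named above. DESeq2 changed no call, with no adjusted p for 30 results. With the replicate number as a block, 20 chains were called with GSK215, as without it, and the block changed no call of the 250. The numbers did not pair the samples, since same-numbered libraries deviated from their group means with a median correlation of -0.013 (-0.25 to 0.20), and 4 of 24 libraries correlated best with their own number. Of 35 partner ratios, 7 changed sign when a library was left out. Leaving out 1 of 3 libraries cannot move a mean by more than the spread between replicates, so the size of these moves was not tested. The limits are a single cell line, 3 libraries per group, 2 dose levels that cannot be told apart from the compounds, and PROTAC libraries shallower than all others. RNA level is not protein, and chains of a few counts were read with wide intervals.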
